A study of Arabidopsis thaliana with 8 samples.

Results

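NAC genes encode one of the largest families of plant transcription factors, named after petunia NAM and Arabidopsis ATAF1 and CUC2. Their proteins share a DNA-binding NAC domain at the N terminus and differ in the C-terminal part, which activates or represses transcription and in some members anchors the protein in a membrane. Family members act in organ boundaries, wood formation, root cap and phloem development, senescence and responses to drought, misfolded protein and DNA damage. The NAC genes examined here were the protein-coding genes whose symbol in a RefSeq gene table is NAC followed only by digits. These were 79 of the 27444 protein-coding genes on chromosomes 1 to 5, and the boundary genes CUC1, CUC2 and CUC3 were not among them. A further 18 numbered NAC genes, such as ATAF1, SOG1 and VND7, carry other symbols and were used for comparison only. The symbols NAC2 and NAC3 each belong to 2 members, which are therefore given with their locus.

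The binding data came from ampDAP-seq, which sequences the fragments of amplified genomic DNA that stay bound to a tagged protein synthesised in a cell-free system. The DNA was Arabidopsis thaliana genomic DNA from 2-week-old seedlings and carried neither chromatin nor methylation, so a window shows DNA that was retained outside the cell and says nothing about the activity of the gene beside it. The 8 samples were an input, not analysed here, and 1 sample each for the ALOG proteins LSH1, LSH2 and LSH3, G1, LOS1, LOS2 and TMF. ALOG proteins are plant transcription factors; as background, the LSH proteins are from Arabidopsis, G1 from rice, TMF from tomato and the LOS proteins from the liverwort Marchantia. All 7 proteins were tested on the same kind of seedling DNA, and the labels state no genotype or treatment.

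Each protein has 1 list of 200 bp windows, kept by the authors where all 3 replicates had them. The single replicates were not analysed here, which leaves every count below without a replicate error, and no difference was tested. The lists held 6902 (G1) to 29555 (LOS2) windows, and their read depth is unknown. The intervals given for shares are 95% Wilson intervals, which cover counting error only. A gene was counted as having a window of a protein when a window centre lay in the gene or within 2000 bp of either end. Long genes have more room for windows. Shares of genes are therefore set beside that of all protein-coding genes, a length-standardised share or both. For the length-standardised share, protein-coding genes of 10 length classes were weighted as the NAC genes are.

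Of the 79 NAC genes, 69 had a window of at least 1 protein, and they held 406 windows in all. LOS2 windows were found at the most NAC genes, 58 (73.4%, interval 62.8 to 81.9%), against 77.6% of all protein-coding genes and a length-standardised 77.3%. LSH2 windows were found at 52 NAC genes (65.8%, 54.8 to 75.3%), against 67.9% and 67.0%. LSH3 had windows at 40 (50.6%, 39.8 to 61.4%), against 59.7% and 58.6%. LOS1 and TMF each had windows at 38 (48.1%, 37.4 to 58.9%). For LOS1 the share of all genes was 53.6% and the length-standardised share 52.4%, and for TMF they were 52.8% and 51.6%. These counts lay close to the background, and for these 5 lists the interval covered both comparison shares.

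The LSH1 and G1 lists gave the lowest counts relative to other genes. LSH1 windows were found at 33 NAC genes (41.8%, 31.5 to 52.8%), against 53.3% of all genes and a length-standardised 52.5%, a ratio of 0.795 to the latter. G1 windows were found at 17 (21.5%, 13.9 to 31.8%), against 32.7% and 31.8%, a ratio of 0.678. The upper bound of the LSH1 interval lay above the length-standardised share and below that of all genes. The G1 interval reached the length-standardised share within rounding and ended below that of all genes. For the remaining lists the ratio was 0.864 (LSH3) to 0.983 (LSH2). Both ratios stayed below 1 under every interval, placement and membership tried for them, from 0.773 to 0.936 for LSH1 and from 0.657 to 0.861 for G1. NAC genes were slightly shorter than other genes, with a median of 1909 bp and a range of 444 to 5710 bp, against a median of 2078 bp.

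**Figure D1:**
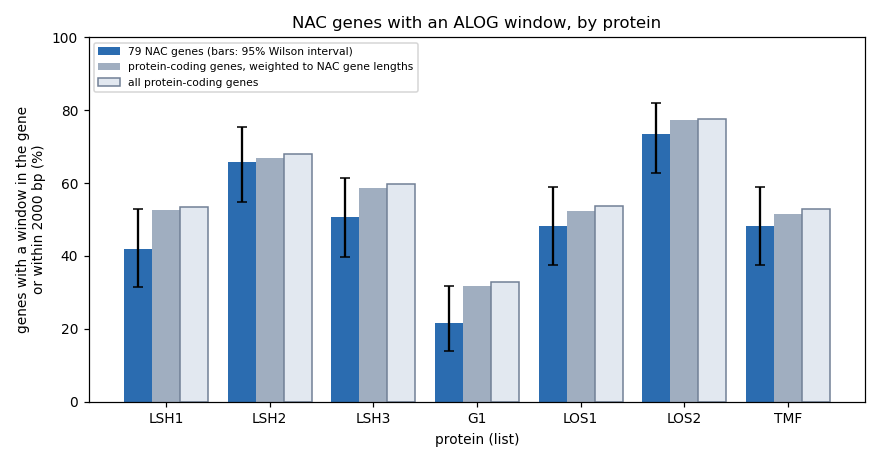
Share of genes (%, y axis) with a window inside or up to 2000 bp from the gene, by protein (x axis), for the NAC genes with 95% Wilson intervals, for protein-coding genes weighted to the same lengths and for all protein-coding genes. The NAC bar lies below both grey bars in every list, by least for LSH2 and by most, relative to its height, for G1.

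The number of proteins per gene ranged from 0 to 7. Windows of all 7 proteins were found at 12 NAC genes (15.2%, interval 8.91 to 24.7%), against 22.6% of all protein-coding genes. Standardised for length the share was 21.2%, or 16.8 of 79 genes, and the interval covered both comparison shares. A further 21 had windows of 5 or 6 proteins, 12 with 5 and 9 with 6, against 8.91 and 12.9 genes by length. Another 21 had windows of 2 to 4 proteins, 7 with each number, against 6.69, 6.71 and 6.61 by length. Exactly 1 protein was found at 15 NAC genes of 79, against 12% of all genes and 10.1 genes by length. No window of any list was found at 10 (12.7%, 7.02 to 21.8%), against 13.4% and 10.4 genes by length. The count without any window was thus near the background. Members with a single protein were more than length alone would give, but no interval was taken for that count. It includes NAC048 and NAC049, which share 1 window. Members with all proteins were fewer, and the background lay within their interval. Neither difference was tested.

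**Figure D2:**
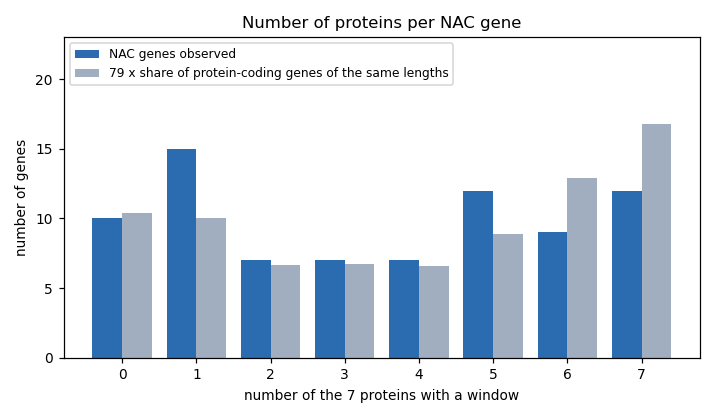
Number of NAC genes (y axis) by the number of the 7 proteins with a window inside or up to 2000 bp from the gene (x axis), beside the number that 79 protein-coding genes of the same lengths would give. The 15 genes with 1 protein stand above and the 12 genes with 7 stand below the grey bars.

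The 12 NAC genes with windows of all 7 proteins were NAC016, NAC017, NAC019, NAC1, NAC027, NAC050, NAC064, NAC069, NAC085, NAC099, NAC105 and NAC2 (AT5G04410). At 10 of them a single region, made by merging overlapping windows, held all 7 lists. In 5 genes that region lay in the gene body, and the remaining 5 had it in a flank. The neighbours NAC016 and NAC017 share the same one, so these are 9 regions. The centres of the windows merged into them lay within 5 to 99 bp of each other, with a median of 22 bp, against 23.5 bp for all regions held in 7 lists. NAC027 and NAC085 had windows of every protein only in separate regions. All positions below are those of the windows, counted from 1; the genome build of the lists is not given in the sources used here.

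**Figure D3:**
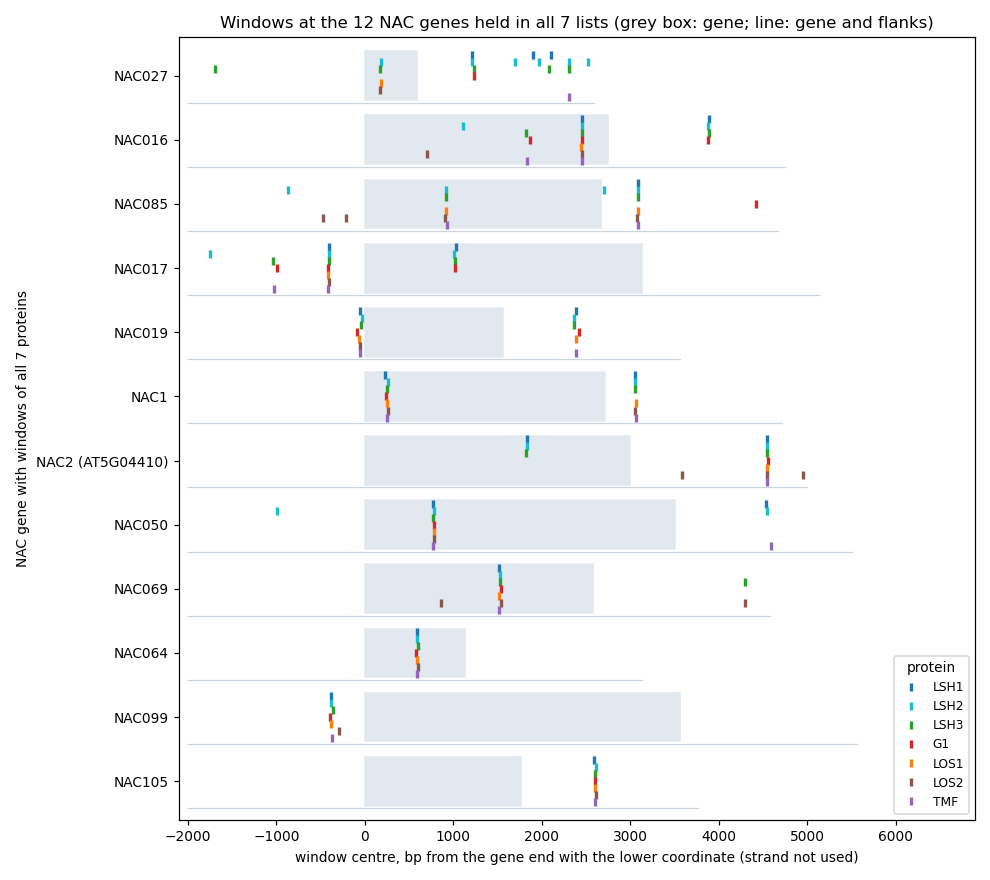
Positions of window centres (x axis, bp from the gene end with the lower coordinate; strand was not used) at the 12 NAC genes with windows of all 7 proteins (y axis), with 1 tick per window coloured by protein, the gene as a grey box and a line for the gene with its flanks. At 10 genes the 7 colours stack at 1 place, while NAC027 and NAC085 show them spread over several.

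Membrane-tethered NAC proteins are held at a membrane and released to the nucleus under stress. With shared windows counted for each gene, their genes held more windows on average than genes of their lengths. Of the 10 such members, all 10 had windows of LSH2 and of LOS2, 9 of LSH3, 8 of LOS1, 7 of TMF, 5 of LSH1 and 4 of G1. Genes of their lengths would give 7.42 for LSH2, 8.33 for LOS2, 6.65 for LSH3, 5.92 for LOS1, 5.82 for TMF, 5.94 for LSH1 and 3.66 for G1. All 7 proteins had windows at 4 of the 10, NAC016, NAC017, NAC069 and NAC2 (AT5G04410), against 2.57 by length. The group held a mean of 8.9 windows per gene over the 7 lists, against a length-standardised 7.66. The 2 membrane-tethered genes of other symbols had fewer windows than the members' mean of 8.9. They are also shorter, with 2307 bp (NTM1) and 1696 bp (NTL8) against a median of 2664.5 bp for the members. NTM1 had 1 window each of LSH1 and LOS2, and NTL8 had 7 windows of LSH1, LSH2, LOS1 and LOS2. Over all 12 genes the mean was 8.17 windows, against 7.43 by length. NAC016 and NAC017 lie next to each other and share 4 regions, so their counts are not independent. All 15 windows of NAC017 are also among the 16 of NAC016, and the means above count them for both genes. No mean with these windows counted once was taken, so the excess over length is uncertain.

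NAC016, a gene with a role in leaf senescence, had 3 windows each of LSH2, LSH3 and G1, 2 each of LSH1, LOS2 and TMF, and 1 of LOS1. Its region of all 7 lists lay in the gene body at chr1:12450891-12451100. NAC017, whose product carries signals from stressed mitochondria to the nucleus, had 15 windows, of which 4 lay in the gene body. Those 4 were in the region at chr1:12452318-12452530, which held LSH1, LSH2, LSH3 and G1, and the other 11 lay nearer to NAC016. NAC017 therefore had windows of all 7 proteins only through the flank that it shares with its neighbour. NAC13, also a factor of the mitochondrial stress response, had 2 regions of LSH2, LSH3, LOS1, LOS2 and TMF and no window of LSH1 or G1. One of them lay in the gene body at chr1:11913056-11913272.

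NAC069 had a gene body region of all 7 proteins at chr4:675281-675502. NAC2 (AT5G04410), also numbered ANAC078 and known with NAC053 as a regulator of proteasome genes, had its region of all 7 lists in a flank, at chr5:1248126-1248343, nearer to the adjacent gene AT5G04420. In its own gene body it held LSH1, LSH2 and LSH3 alone, at chr5:1245411-1245620. NAC053 had 1 region, in the gene body at chr3:3272940-3273147, with LSH2, LOS1, LOS2 and TMF. NAC062, which acts in the cold and unfolded protein responses, had 4 windows, none in the gene body, and NAC060 and NAC014 had 3 and 7. NAC089, a factor of the endoplasmic reticulum stress response, had windows of every protein but G1, with all 8 windows in its flanks.

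Genes for DNA damage, protein folding and nucleolar stress had windows of most proteins. All 4 members, NAC044, NAC082, NAC085 and NAC103, had windows of LSH1, LSH2, LSH3, LOS1, LOS2 and TMF, where genes of their lengths would give 2.30 (TMF) to 3.31 (LOS2) of 4. G1 had windows at 1 of them, NAC085, against 1.44 by length. Their mean was 10.25 windows, against 7.50 by length. With 4 genes these counts are small. NAC062 and NAC089, named above for the unfolded protein and endoplasmic reticulum stress responses, were counted only among the membrane-tethered genes. NAC062 had windows of LSH2, LSH3 and LOS2 only, and NAC089 of every protein but G1. NAC044 and NAC085 hold the cell cycle in G2 after DNA damage, downstream of SOG1, itself a NAC gene of another symbol, which had windows of all 7 proteins.

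NAC085 had 16 windows, 4 each of LSH2 and LOS2, 2 each of LSH3, LOS1 and TMF, and 1 each of LSH1 and G1. They formed 7 regions, of which 1 lay in the gene body, at chr5:4671095-4671314, with LSH2, LSH3, LOS1, LOS2 and TMF. A flank region at chr5:4673264-4673475 held every protein but G1. The only G1 window of NAC085 was alone at chr5:4674611-4674810, nearer to AT5G14500. NAC044 had 9 windows, 7 of them in the gene body, and its main region at chr3:230153-230367 held the 3 LSH and both LOS proteins. NAC103, a target and helper of the unfolded protein response, had 10 windows, 9 of them in the gene body, and all lists but G1 met at chr5:25635233-25635470. NAC082, a mediator of nucleolar stress, had a single region of those same 6 proteins, in a flank that is nearer to another gene.

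Of the genes for senescence and cell death, 7 are numbered NAC genes and 5 of these are members by symbol. Of the 5 members, 3 had no window of any protein, where 0.669 would be given by length, and the group held a mean of 1.40 windows against 6.07. The genes without windows were NAC6 (AT5G39610, also ORE1), a central activator of leaf ageing, its relative NAC3 (AT3G29035, also ORS1) and NAC046, which promotes chlorophyll loss. NAC047, a gene of petiole growth under waterlogging, had 1 LSH2 window in its flank. NAC042, also JUNGBRUNNEN 1, which delays ageing, had 6 windows, 3 of them LOS2 and 1 each of LSH2, LSH3 and TMF. A region with 4 of its windows lay in the gene body at chr2:17881861-17882087. None of these 5 members had a window of LSH1, G1 or LOS1, where genes of their lengths would give 2.56, 1.52 and 2.52. The absence does not extend to the whole group: NAP, a senescence gene that carries another symbol, had 10 windows of every protein but TMF, with 1 each of LSH1, G1 and LOS1. ANAC087, the other such gene, had 1 LOS2 window. NAC016, which also has a role in leaf senescence, was counted only among the membrane-tethered genes and had 16 windows of all 7 proteins. Over the 7 genes of the senescence group, without NAC016, the mean was 2.57 windows, against 6.06 by length. With 5 genes these counts are small, and the groups of NAC genes were not tested against each other.

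Genes for xylem and secondary walls numbered 10 among the members. LSH2 and LOS2 had windows at 8 each, LOS1 at 6, LSH3 and TMF at 5, LSH1 at 4 and G1 at 2, against 6.97, 7.98, 5.54, 6.18, 5.47, 5.54 and 3.40 by length in that order. NAC105, also VND3 and one of the genes that specify xylem vessels, was the only one with all 7 proteins, against 2.35 by length. It had 1 region, in a flank at chr5:26482256-26482482, with 1 window of each list. NAC101, also VND6, a regulator of metaxylem vessels, had 11 windows of every protein but LOS2. It held 3 of G1, 2 each of LSH1, LSH2 and TMF, and 1 each of LSH3 and LOS1. Nearly all of these lay in a flank region of 9 windows at chr5:25053291-25053811 that is nearer to BAG7, and the gene body held only a region of G1 and LOS1.

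The other vessel genes differed. NAC076, also VND2, had 8 windows, all in the gene body, in 2 regions at chr4:17112767-17112966 and chr4:17113215-17113652, with none of LSH1 or G1. NAC007, also VND4, had 1 region of LSH2, LSH3, LOS2 and TMF in a flank. Among the fibre and wall genes, NAC012, a main switch of fibre wall thickening, had 1 LOS2 window, NAC066, its relative, 1 LSH2 window, and NAC073 3 LOS2 windows. NAC010 had windows of all proteins but G1, NAC075 of LSH1, LSH2, LOS1 and LOS2, and NAC083, a partner that restrains VND7, of LSH2, LOS1 and LOS2. The 10 genes held a mean of 5.1 windows, against 7.25 by length. With the 5 xylem genes of other symbols the mean was 4.2, against 7.41. Of these 5 genes, VND7 had 8 windows, NST1 2, VND1 and XND1 1 each, and ANAC026 none.

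Stress genes of the abscisic acid response had 5 members, which also held more windows on average than genes of their lengths. All 5 had a LOS2 window, against 3.77 by length, and 4 had one of LSH2 and of TMF, against 3.20 and 2.41. LSH3 and LOS1 had windows at 3, against 2.74 and 2.46, LSH1 at 2, against 2.49, and G1 at 1, against 1.47. NAC019, a gene induced by drought and jasmonate, held 2 windows of every protein but LOS2, of which it had 1. A region of all 7 lists lay in one flank, at chr1:19696732-19696987, and a region of all but LOS2 in the other, at chr1:19699186-19699440; none of its 13 windows lay in the gene body. NAC3 (AT3G15500, ANAC055), its close relative, had 9 windows of 5 proteins, with none of LSH1 or G1, and a gene body region of all 5 at chr3:5235244-5235457. NAC102, linked to tolerance of low oxygen, had 8 windows of every protein but G1, NAC032 had 3 and NAC096 a single LOS2 window. For this group the mean was 6.80 windows, against 5.81 by length. The members ranged from 1 to 13 windows. With 5 genes these counts are small, and the mean depends strongly on NAC019, which held the 13. The related genes of other symbols, ATAF1, RD26 and ATAF2, each had windows of 4 proteins. None had a G1 window, which only 32.7% of all protein-coding genes had.

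Developmental genes of the root and phloem varied. NAC1, which acts in lateral root formation under auxin, had 2 windows of every protein but G1, of which it had 1. Its region of all 7 proteins lay in the gene body at chr1:20946701-20946931, and a region of all but G1 lay in a flank at chr1:20949527-20949734. Of the root cap genes, NAC015 (BEARSKIN 1) had 6 windows of 5 proteins, and NAC070 (BEARSKIN 2) 1 each of LSH1 and G1. Of the phloem genes, NAC045, which removes the nucleus of sieve elements, had windows of all proteins but G1. Its partner NAC086 had a single LOS2 window and NAC020 a single LSH2 window. NAC2 (AT3G15510, ANAC056), a gene of seed coat formation, had 2 LOS2 windows and 1 LSH2 window.

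The 38 members in none of these groups had a median of 2.5 windows and a mean of 3.97, against 6.08 by length. Of these, 4 had all 7 proteins, against 7.33 by length, and 7 had none, against 5.90. NAC027 (AT1G64105) had the most windows of any member, 18, although its gene is 593 bp long. It held 6 windows of LSH2, 5 of LSH3, 3 of LSH1 and 1 each of G1, LOS1, LOS2 and TMF. Its gene body held 1 region, at chr1:23795120-23795333, with LSH2, LSH3, LOS1 and LOS2. The other windows lay in flanks nearer to AT1G64100, AT1G64107 and DAA1, among them a region of the 3 LSH proteins at chr1:23796851-23797251. NAC050, whose product works with a histone demethylase, had a gene body region of all 7 proteins at chr3:3264868-3265072, and its neighbour and relative NAC052 had 7 windows of 5 proteins, none of them of LSH3 or G1. NAC064 and NAC099 each had 1 region with 1 window of every protein, NAC064 in the gene body at chr3:20949388-20949606 and NAC099 in a flank at chr5:22917440-22917738. NAC038 had 12 windows, 4 of LSH2, 3 each of LSH1 and LSH3, and 1 each of LOS1 and TMF, in 5 regions.

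**Figure D4:**
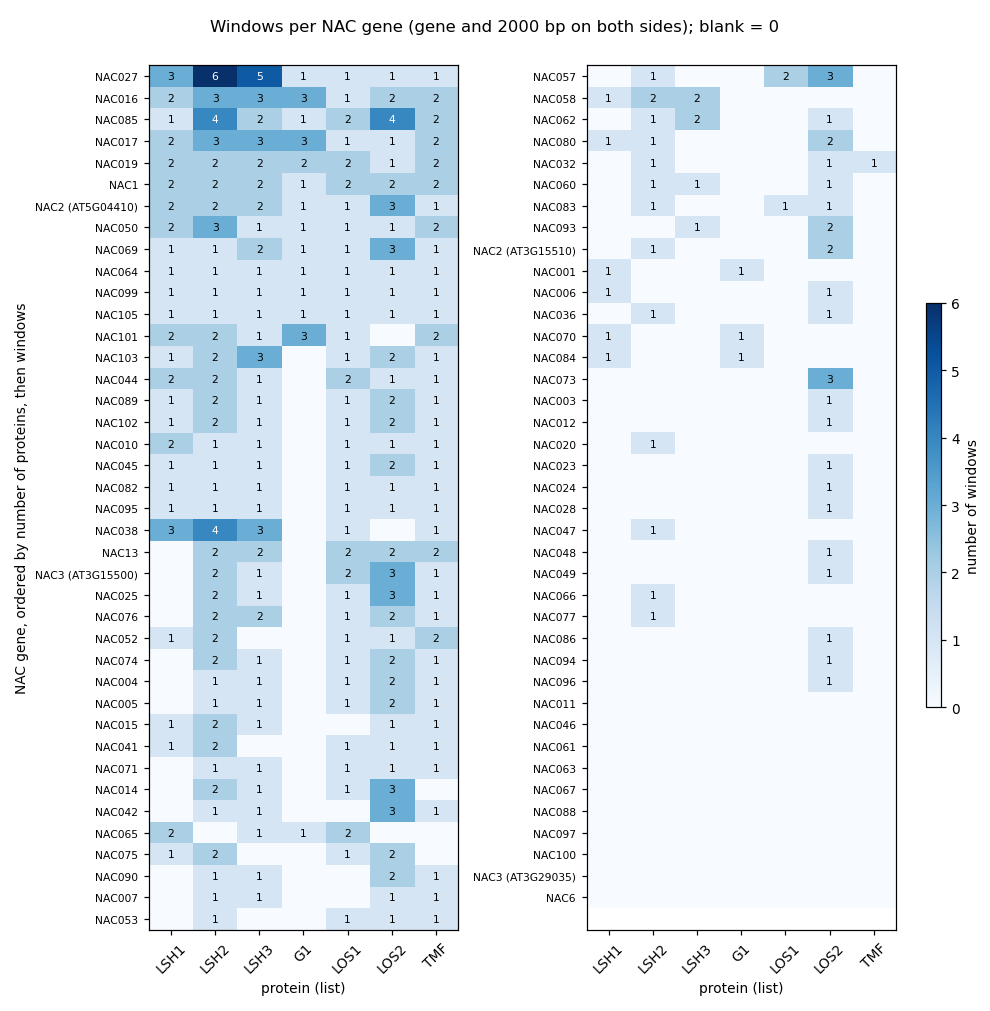
Number of windows of each protein (x axis) at each of the 79 NAC genes (y axis, both panels, ordered by the number of proteins and then of windows), counted in the gene and 2000 bp on both sides; darker blue is more windows, up to 6, and blank is 0. The first 12 genes have every protein, the LOS2 and LSH2 columns reach furthest down, and the last 10 genes are blank.

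By total count, 10 NAC genes had more than 10 windows, namely NAC027, NAC016, NAC085, NAC017, NAC019, NAC1, NAC038, NAC2 (AT5G04410), NAC050 and NAC101. Per kb of gene and flanks, NAC027 led with 3.92, followed by NAC085 with 2.40, NAC016 with 2.37, NAC019 with 2.34, NAC017 with 2.10 and NAC1 with 1.94. NAC101, NAC2 (AT5G04410), NAC038 and NAC13 followed with 1.86, 1.71, 1.68 and 1.58. The median over all members was 5 windows, against 6 over all protein-coding genes, and the mean 5.14 against a length-standardised 6.55. Among the NAC genes the number of windows followed length in part. The 27 shortest genes, of 444 to 1726 bp, had a median of 1 window and 7 genes without any, and the 26 longest, of 2317 to 5710 bp, a median of 7 and 1 gene without. Of the 12 genes with all proteins, 8 were among the longest, 1 was among the 26 of middle length and 3 among the shortest. Of all protein-coding genes in the same length ranges, 28.8%, 20.4% and 14.8% had all 7 proteins. The longest and shortest NAC genes were thus near these shares and those of middle length below.

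**Figure D5:**
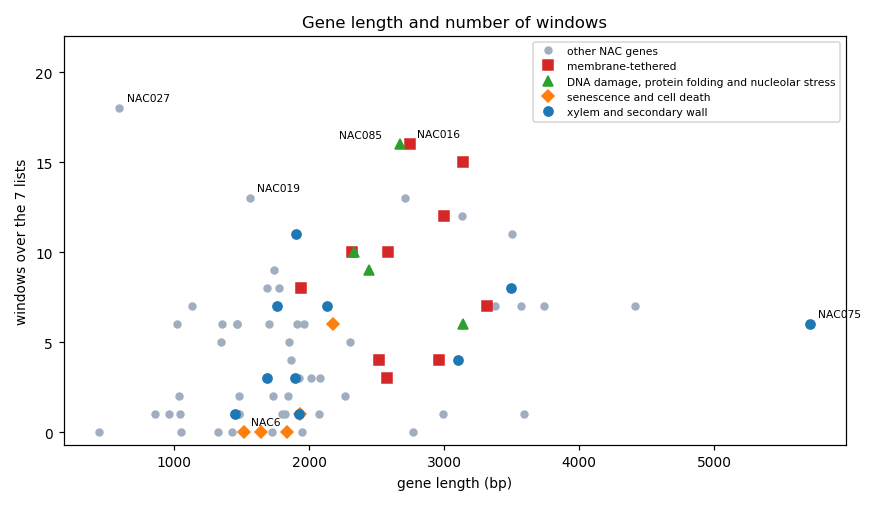
Windows over the 7 lists (y axis) against gene length in bp (x axis), 1 point per NAC gene, with 4 groups of known role marked by colour and shape. NAC027 stands at 18 windows with 593 bp, the squares and triangles lie at 3 to 16 windows, and 3 of the diamonds lie at 0.

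The 10 NAC genes without a window were NAC011, NAC046, NAC061, NAC063, NAC067, NAC088, NAC097, NAC100, NAC6 and NAC3 (AT3G29035). They ranged from 444 bp (NAC088) to 2772 bp (NAC067). With flanks widened to 5000 bp, 8 of the 10 had a window of some protein, and NAC063 and NAC088 still had none. NAC6 then had 1 LOS2 window only, whereas NAC061 had 1 of every protein. A gene without a window in these lists is one at which no consensus window was kept, and binding below the authors' threshold cannot be seen.

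LOS2 alone was found at 11 members, NAC003, NAC012, NAC023, NAC024, NAC028, NAC048, NAC049, NAC073, NAC086, NAC094 and NAC096. Among all protein-coding genes 8.81% had LOS2 alone. LSH2 alone was found at 4, NAC020, NAC047, NAC066 and NAC077, against 0.889% of all genes. NAC073 had 3 windows and the other 14 genes 1 each. NAC048 and NAC049 are neighbours and share their window.

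Some members were held by related lists only. NAC058 was the 1 member with windows of all 3 LSH and neither LOS protein, against 2.15% of all protein-coding genes or 1.73 genes by length. It had 2 LSH2, 2 LSH3 and 1 LSH1 windows, in flank regions at chr3:6316654-6316857 and chr3:6317268-6317473 that are nearer to EMB1865. No member had both LOS and no LSH protein, a pattern of 1.05% of all genes and 0.890 genes by length. All proteins but G1 had windows at 8 members, or 10.1% of them, against 12.9% of all genes. These were NAC010, NAC044, NAC045, NAC082, NAC089, NAC095, NAC102 and NAC103. A further 8 members had LSH2, LSH3, LOS1, LOS2 and TMF and lacked both LSH1 and G1, a combination of 6.61% of all genes. They were NAC004, NAC005, NAC13, NAC025, NAC071, NAC074, NAC076 and NAC3 (AT3G15500), of which NAC004 and NAC005 are neighbours. NAC071 acts in the rejoining of cut stems. All 38 members with a TMF window also had one of LSH2, as did 96.1% of all genes with a TMF window.

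All 17 NAC genes with a G1 window also had an LSH1 window. This lay near the background, as 89.3% of all genes with a G1 window had one too. In the other direction, 51.5% of the NAC genes with an LSH1 window had one of G1, against 54.8% of all such genes. A LOS2 window was present at 12 of the 17 (70.6%), against 91.1% of all genes with a G1 window. The 5 without LOS2 were NAC001, NAC065, NAC070, NAC084 and NAC101. Of these, NAC001, NAC070 and NAC084 had LSH1 and G1 only, a combination of 0.503% of all genes. In NAC084 both windows overlapped in the gene body, at chr5:4518211-4518444, in NAC070 they overlapped in a flank at chr4:6418209-6418415, and in NAC001 they lay apart, at chr1:4461-4660 and chr1:5452-5651. In NAC065, LSH1 and G1 met with LOS1 in a flank region, at chr3:20954375-20954595.

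Merged over lists, the NAC genes and their flanks held 140 regions. Of these, 61 (43.6%) were in 1 list only, against 40.3% of the 36325 regions near any protein-coding gene, and 9 (6.43%) were in all 7, against 7.86%. LOS2 alone held 37 (26.4%), against 28.1%. LSH2 alone held 14 (10%, interval 6.05 to 16.1%), against 3.28%. Put otherwise, 17.3% of the LSH2 regions at NAC genes were in no other list, against 6.21% of those at all genes. These 14 regions were spread over 13 members, with 4 in a gene body and 8 nearest to a NAC gene. The genes were NAC015, NAC016, NAC017, NAC020, NAC027, NAC036, NAC038, NAC047, NAC050, NAC066, NAC077, NAC085 and NAC089. No region was held by LOS1 or TMF alone, as were only 0.275% and 0.184% of the regions near all genes. The LSH2 share was not tested.

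With each window counted for every gene within 2000 bp, more windows lay beside the NAC genes than in them, as for all protein-coding genes. Such counting also enters a window in a neighbouring gene as a flank window. Over the whole lists, 71.1% of windows lay in a protein-coding gene. Counted for the nearest gene only, 65.3% of the NAC windows lay in the gene body. Of the 406 windows, 158 (38.9%) had their centre in the gene body, against 43.7% for all protein-coding genes counted in the same way. The shares of windows in the body were not standardised for length. NAC genes had a median of 1909 bp against 2078 bp, and a shorter gene leaves less body beside the fixed flanks. By protein the share in the body was lowest for LSH1, 36.2% (interval 24.0 to 50.5%), where all genes gave 46.2%. It was highest for LSH3, 42.6% (31.0 to 55.1%), where all genes gave 45.5%. For each of the 7 lists the NAC share was the lower one and its interval covered that of all genes. No gene body window was found in 41 of the 79 genes, where the length-standardised share was 46.3%. Gene body windows of all 7 proteins were found in 5, where that share was 7.77%, namely NAC016, NAC1, NAC050, NAC064 and NAC069.

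Many flank windows can be counted for another gene as well. Of the 140 regions, 85 had a NAC gene as the nearest protein-coding gene and 55 did not. When each window was counted only for its nearest gene, 7 members had all proteins, NAC016, NAC019, NAC1, NAC050, NAC064, NAC069 and NAC105, and 25 had none. The members also touched one another in 5 places. NAC016 and NAC017 shared 4 regions, NAC050, NAC052 and NAC053 shared 2, NAC004 and NAC005 shared 1, and NAC048 and NAC049 shared 1. The intervals of NAC077 and NAC2 (AT5G04410) touched without a shared region.

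The 18 numbered NAC genes of other symbols were counted in the same way. All 7 proteins had windows at 2 of them, SOG1 and the root cap gene SMB, against 4.21 by length. LOS2 had windows at 17, against 14.5 by length, LSH2 at 11, against 12.6, and TMF at 7, against 9.88. LSH1, LSH3 and LOS1 had windows at 9 each, against 10.04, 11.2 and 9.98, and G1 at 4, against 6.15. Every list but LOS2 was thus below the length-standardised count in both sets. LOS2 was above it here and below it among the 79 members. The differences among the 18 genes rest on small counts and on lists that overlap, and they were not tested. Of these genes ANAC026 had no window, and VND1, XND1 and ANAC087, a gene of root cap cell death, had LOS2 alone. The excluded CUC genes, which set organ boundaries, had 6 windows (CUC1 and CUC2) and 8 windows (CUC3). None of the windows was of G1, where genes of their lengths would give 0.980 of 3 genes.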

How the data were processed

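The authors' deposited files hold chromosome, start and end columns only, without a score or read count, and all windows are 200 bp wide. Per the submitters' processing notes, the tools were Bowtie2, SAMtools and MACS2; versions, settings, thresholds and the genome build are not stated there or in the labels. Per the series' design text, windows found in all 3 replicates were kept. A looser or stricter threshold would change all counts.

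Groups came from the sample titles. Gene names and intervals came from a RefSeq table of assembly TAIR10.1 without strand; 71.1% of windows lay in protein-coding genes, against 67.4% after shifts of 1000 bp either way. Window centres were counted per gene with 2000 bp flanks, overlapping windows (1 bp) merged into regions, and length-standardised shares taken over 10 length classes. No test was run. The members and role groups were chosen with earlier results of these data known. Named were genes with all, 1 or no proteins, the 10 with most windows in total and per kb, LSH or LOS patterns and role groups. Planned promoter motif, promoter overlap and protein identity results were not run, as no sequence was used here. Counting was tested on simulated data, where 4000 of 4000 planted windows were recovered. Software was scipy 1.17.1, pandas 2.3.3 and numpy 2.4.6 under Python 3.11.15.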

Additional observations from a re-analysis of the deposited data

How the results depend on the processing

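Of 173 recomputed values, 142 stayed within 1.5 times the reported count, or within its interval for ratios and shares. Adding ANAC026 and ANAC087 as members was chosen after the data were seen and moved no result past these limits; nor did any overlap of 1 bp, touching members counted once (73 groups), 20 length classes, all genes as comparison, or the 18 other NAC genes added. Most moves follow from the interval itself. In the gene body only, members with a window were 28 (LSH2), 27 (LOS2), 22 (LSH3), 18 (LOS1), 18 (TMF), 17 (LSH1) and 9 (G1), all proteins were found at 5 and none at 41, the median was 0 windows, and 2 had the LSH and not the LOS proteins. With 1000 bp flanks, 19 had no window, the median was 2, and 0 had the LSH pattern. With 5000 bp flanks, members were 56 (LSH1), 35 (G1), 62 (LOS1) and 61 (TMF), 28 had all proteins and 2 none, and the median was 11. With the nearest gene only, LOS1 and TMF fell to 24 each, 7 members had all proteins and 25 none, the median was 2, the LSH pattern was at 2, the body share was 65.3% by construction, and the LSH2 ratio rose to 1.14. Without G1, 20 members had all the other proteins, and without LOS2, 21 had no window. No paired analysis was possible because each protein has 1 consensus list. Read depth is unknown, so windows below the authors' threshold cannot be seen.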
